A study of Mus musculus with 8 samples.

Results

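The ribosomal proteins and translation factors of mouse spinal cord were examined in experimental autoimmune encephalomyelitis (EAE), an animal model of multiple sclerosis. The members were the probe sets of the Affymetrix MG U74Av2 array, control probe sets left out, whose annotation gives 1 gene symbol that names a protein of the large (Rpl, Rplp) or small (Rps, Rpsa) subunit of the cytosolic ribosome, an initiation factor (Eif1 to Eif6) or an elongation factor (Eef1, Eef2). Ribosomal S6 kinases, Eif2ak2 and Eif2s3y were left out. This gave 113 probe sets of 82 genes, out of 12422 probe sets and 8251 genes with a single symbol. They comprised 17 large subunit proteins, 18 small subunit proteins, 33 initiation factors, 6 elongation factors and 8 genes whose products regulate these factors. A further 40 probe sets pair the name of such a gene with other symbols and were kept out of the membership.

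RNA of whole spinal cord was measured on 5 EAE arrays and 3 control arrays, each with the pooled RNA of 2 animals, so that 10 EAE and 6 control mice were sampled. All mice were SJL/J females, aged 8 to 12 weeks according to the labels and 8 weeks according to the methods. EAE mice had been immunized with a PLP peptide, had an average grade of 2.5 and were killed on day 14 (EAE array 1), day 12 to 14 (array 2), day 17 (array 3), day 14 (array 4) and day 15.5 (array 5). Healthy controls had received vehicle. EAE mice alone had also been given murine serum albumin into a vein 3 h before they were killed, and an effect of this injection cannot be told apart from that of EAE. Arrays 1, 2 and 3 of both groups share a processing batch with the array of the same number, and EAE arrays 4 and 5 form batches of their own.

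Protein synthesis begins when initiation factors bring the small ribosomal subunit and the initiator tRNA to the capped end of an mRNA, where the cap-binding complex eIF4F loads the ribosome. Elongation factors then carry each aminoacyl-tRNA to the ribosome and move it along the message. mRNAs of ribosomal proteins and elongation factors usually start with a run of pyrimidines, the 5' terminal oligopyrimidine (TOP) motif, through which the mTOR pathway controls their translation, while phosphorylation of eIF2 slows initiation under stress. Activated immune cells make much protein, and adult neurons use the elongation factor eEF1A2 in place of the widespread eEF1A1.

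Pyrimidine runs near the annotated start site were looked for in the reference genome. Windows of 30 bases, from 10 bases before the annotated start site to 20 bases after it, are printed for 4 ribosomal protein genes with long pyrimidine runs in the window and for the 4 genes Eef1a1, Rplp0, Rps4x and Eef1a2, on which results below turn. They are RefSeq sequences of the mouse assembly GRCm38.p6, which is of another strain than SJL/J, given 5′ to 3′ on the strand of the gene. Capitals mark the longest run of C and T in the window.
Rpl7a, chr2:26910797-26910826, plus strand: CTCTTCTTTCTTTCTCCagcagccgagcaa
Rpl13a, chr7:45128726-45128755, minus strand: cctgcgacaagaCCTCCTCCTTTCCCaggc
Rps10, chr17:27635225-27635254, minus strand: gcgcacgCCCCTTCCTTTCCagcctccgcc
Rps18, chr17:33955646-33955675, minus strand: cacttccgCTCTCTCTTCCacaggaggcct
Eef1a1, chr9:78481705-78481734, minus strand: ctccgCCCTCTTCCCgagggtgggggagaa
Rplp0, chr5:115559457-115559486, plus strand: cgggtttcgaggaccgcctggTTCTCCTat
Rps4x, chrX:102189372-102189401, minus strand: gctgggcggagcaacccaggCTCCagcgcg
Eef1a2, chr2:181156996-181157025, minus strand: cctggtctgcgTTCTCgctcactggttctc

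The run was 17 bases long in Rpl7a, 14 in Rpl13a, 13 in Rps10, 11 in Rps18 and 10 in Eef1a1, against 7 in Rplp0, 5 in Eef1a2 and 4 in Rps4x. It spanned the start site in Rpl7a, Rps10, Rps18 and Eef1a1, and began after it, at base 3 in Rpl13a, 2 in Eef1a2, 11 in Rps4x and 12 in Rplp0, counted from 1 at the start site. A run of at least 8 bases, at any place in the window, was found in 27% of 37 such windows of 28 ribosomal protein genes. It was found in 11.2% of the 32851 windows of all genes in the table. For regulators it was 33.3% of 12 windows of 6 genes, and for initiation factors 15.8% of 38 windows of 29 genes. Most of the regulator windows with such a run were of Eif4enif1 (runs of 9, 8 and 10 bases), a gene with several windows. In the promoters, windows from 250 bases before to 50 bases after the start site, the letters CCGGAAG, read by factors of the ETS family, were present on either strand in 32.4% for ribosomal proteins and in 31.6% of 38 for initiation factors, against 8.86% for all genes. The letters AAGATGG, the core read by YY1, stood in 24.3% for ribosomal proteins and in 6.34% for all genes. For large and small subunit proteins apart, it was 36.8% of 19 and 11.1% of 18 windows, from 14 genes each. The windows of Rpl35a, which overlap, all held these letters and were counted separately. The pentamer CTTTC stood in 86.5% for ribosomal proteins and in 57.3% for all genes, and TATAAA in 10.8% and 13.6%. These are matches of letters in the reference genome and not sites shown to be bound, and overlaps between the motifs were not removed. Windows of the same gene can overlap and were counted separately.

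Most of these genes differed little between EAE and control, and so did most probe sets of the array. Of the 113 probe sets, 9 were higher and 3 were lower in EAE at an adjusted p under 0.05 (limma, treatment and batch, Benjamini-Hochberg over all probe sets), and 101 did not pass. These 12 calls are 10.6% of the members (7.96% higher and 2.65% lower), while over all probe sets tested 19.6% were called (8.26% higher and 11.4% lower). The log2 fold change of the members had a median of -0.02 and ran from -0.82 to 0.85, against a median of -0.05 over all probe sets. A fold change within 0.2 on the log2 scale was found for 71 members (62.8%) and for 62.2% of all probe sets. Every EAE array lay above every control array for 17 members (15%, against 10.9% of all probe sets), and below every control array for 9 (7.96%, against 15.1%). With the brightest probe set standing for each gene, 6 of 82 genes were higher and 3 lower (7.32% and 3.66%, against 9.19% and 13.5% of all genes). One of the 3, Eif1ax, rests on 1 of a pair of probe sets that disagree in sign, and 2 genes were lower when the probe sets of a gene were averaged. These counts lean on batch 3: without EAE array 3 or without control array 3, which both remove that pair from the contrast, 2 probe sets were higher and 0 lower, namely Rplp0 and Eif4ebp1. Without moderation of the variances, with 2 residual degrees of freedom, 0 members passed. Calls outside the members were lost too. Of the mitochondrial ribosomal protein and factor genes described below, 11 were lower in the main fit and 0 without batch 3 or without moderation. The share of all probe sets called under these settings is not given here, so the losses cannot be read as particular to the members.

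**Figure D1:**
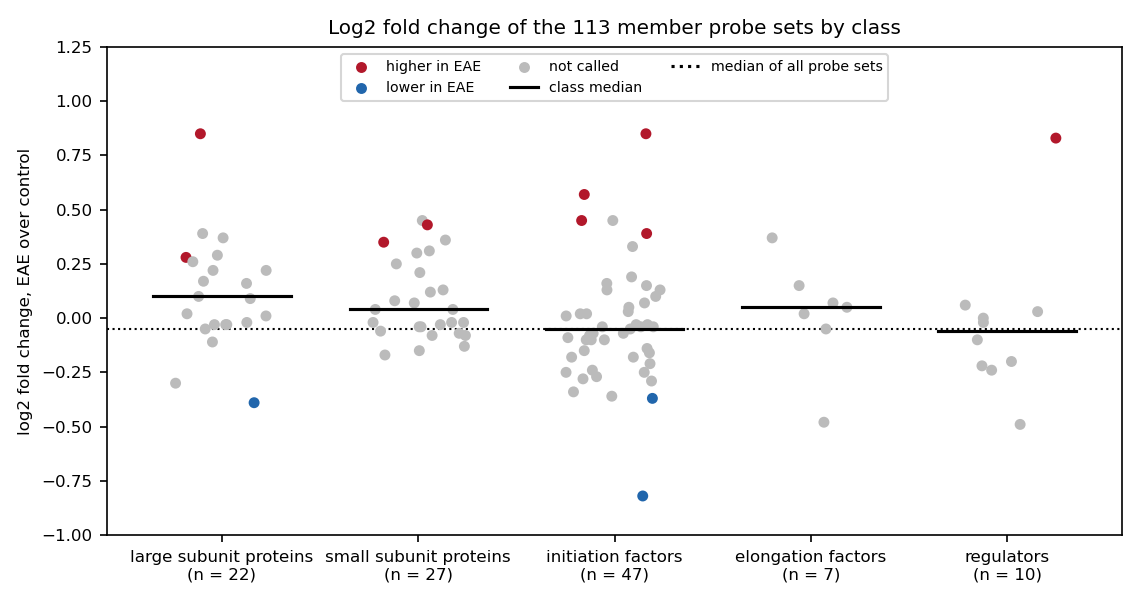
Log2 fold change of EAE over control (y axis) for each of the 113 member probe sets, grouped by class (x axis). Points are red when higher and blue when lower in EAE at an adjusted p under 0.05 and grey otherwise, solid lines are class medians (0.10, 0.04, -0.05, 0.05 and -0.06 from left to right), and the dotted line is the median of all probe sets (-0.05).

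Ribosomal proteins of both subunits were measured by 49 probe sets, of which 4 were higher and 1 was lower (8.16% and 2.04%), with a median log2 fold change of 0.04. Bright and dim probe sets differed. The 26 in the brighter 50% of the array (mean over the 8 arrays of at least 6.12 on the log2 scale) had a median of 0.23, and 22 of them (84.6%) were positive. Over all 6211 such probe sets the median was -0.10 and 34.3% were positive, with 10.9% called higher and 18.6% called lower, while all 5 ribosomal calls were among the brighter probe sets (15.4% higher and 3.85% lower). The 23 dimmer probe sets had a median of -0.03 with 6 positive, 0 were called by limma, and 0 had an unadjusted p under 0.05. Calls were fewer among dim probe sets of the whole array as well. Of 1026 higher and 1412 lower calls over all probe sets, 680 and 1155 were in the brighter 50%. The median of all probe sets with a signal below 5 was -0.02, and from 5 to 6 it was -0.03. The 40 probe sets that pair the name of a ribosomal protein or factor with other symbols, 36 of them bright, had a median of 0.12. Of these 40, 28 (70%) were positive, and by limma 1 was higher (2.5%) and 0 were lower.

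The contrast with other bright probe sets was clearest at the top of the range. Of the 622 probe sets with the highest 5% of signals, 17 were ribosomal proteins, whose median was 0.28 with 16 positive, 3 higher and 0 lower. All 622 had a median of -0.21, 30.7% were positive, and 8.36% were higher and 24.9% lower. The median of the 26 brighter ribosomal probe sets was 0.04 in pair 1, 0.16 in pair 2 and 0.35 in pair 3, against -0.09, -0.09 and -0.12 for all brighter probe sets in the same pairs. The ribosomal median was 0.12 without either array of batch 3.

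**Figure D2:**
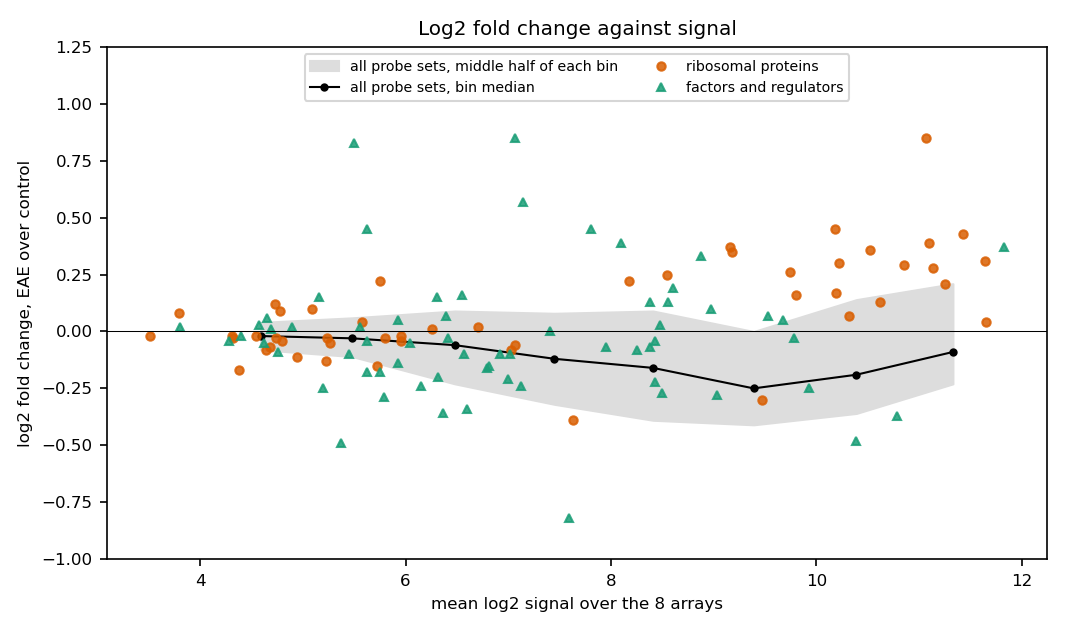
Log2 fold change of EAE over control (y axis) against the mean log2 signal over the 8 arrays (x axis). Orange circles are the 49 ribosomal protein probe sets and green triangles the other members. The black line joins the medians of all probe sets in bins of 1 log2 unit and the grey band is their interquartile range. Bright ribosomal proteins lie mostly above the line, which falls to -0.25 at a signal of about 9.39.

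Array by array, with the average of the 3 controls set to 0, the median of the brighter ribosomal probe sets stood at 0.08, 0.24, 0.29, 0.05 and 0.22 on EAE arrays 1 to 5, and at 0.05, 0.01 and -0.06 on control arrays 1 to 3. EAE arrays 2, 3 and 5 were above the controls by more than the controls differed among themselves, while EAE arrays 1 and 4 were level with control array 1. The same 2 arrays had the largest excess of 3' over 5' signal on the Gapdh control probe sets, a measure of RNA integrity and labelling, at 1.46 and 2.07 on the log2 scale, against 0.65, 0.46 and 0.78 on EAE arrays 2, 3 and 5 and 0.53, 0.97 and 0.93 on the control arrays. On the Actb control probe sets the excess was 2.35, 1.63, 1.11, 2.79 and 1.83 on EAE arrays 1 to 5 and 2.20, 2.29 and 1.62 on control arrays 1 to 3, so that EAE array 1 was close to control arrays 1 and 2 and EAE array 4 was the highest. The part of RNA quality in these values was not tested. With EAE arrays 1 and 4 left out and no batch term, the median was 0.27.

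**Figure D3:**
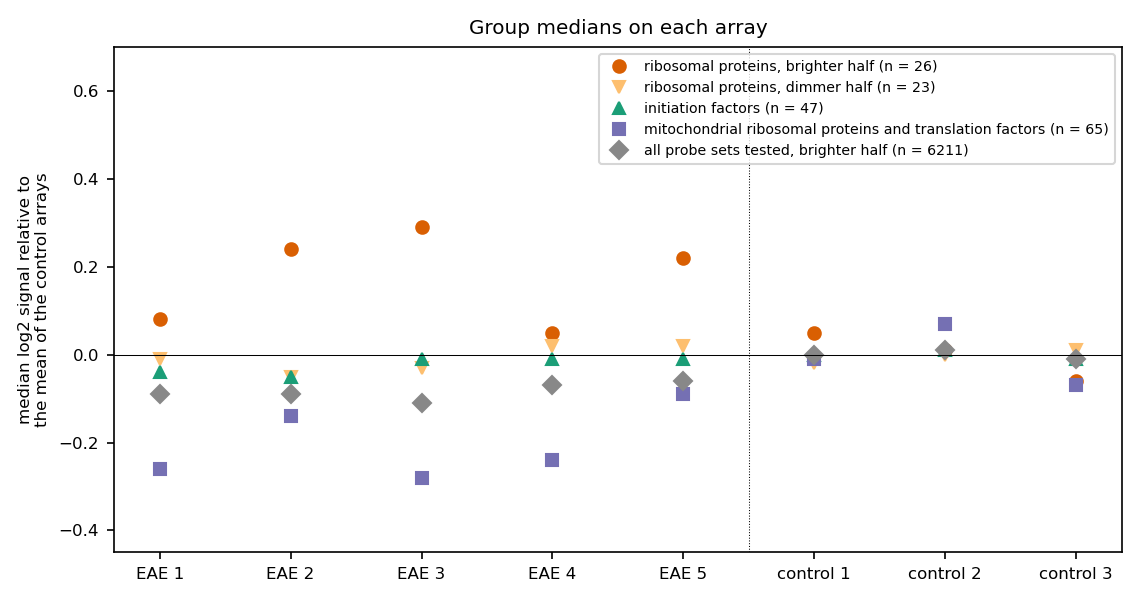
Median log2 signal, with the control average set to 0 (y axis), for every EAE and control array (x axis) and the groups named in the legend. Brighter ribosomal proteins (orange circles) reach 0.29 on EAE array 3, and mitochondrial ribosomal proteins and translation factors (purple squares) lie between -0.28 and -0.09 on the EAE arrays.

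Rplp0 encodes the stalk protein P0 of the large subunit, which recruits the factors that drive the ribosome, and its transcript is widely used as a reference in quantitative PCR. It had the lowest adjusted p of all members. Its log2 signal was 11.31, 11.44, 11.50, 11.13 and 11.46 on the EAE arrays, against 10.53, 10.48 and 10.71 on the control arrays. The groups were separated by more than the range within either. The log2 fold change was 0.85 (SE 0.0718, 95% interval 0.66 to 1.03), a 1.8-fold difference, with an adjusted p of 0.00284 in limma and with p = 0.0179 in an exact permutation test, which ignores the batches and cannot give a lower value with 56 regroupings. The 3 pairs gave 0.79, 0.96 and 0.79.

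The other large subunit proteins moved less and not all in one direction. Rpl7 was measured by a probe set that shares sequence with related transcripts, at 11.34, 11.19, 11.22, 11.30 and 11.20 in EAE and 11.07, 10.97 and 10.86 in control. The log2 fold change was 0.28 (SE 0.0672, adjusted p in limma 0.0438), and a dim probe set of the same gene gave -0.11. Rpl22, a large subunit protein that in mice is needed for the development of one lineage of T cells, was lower. Its brighter probe set read 7.49, 7.41, 7.62, 7.48 and 7.36 in EAE and 7.84, 7.73 and 8.12 in control, a log2 fold change of -0.39 (SE 0.0711, adjusted p in limma 0.0224), and the groups did not overlap. The dimmer one gave -0.03.

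Further bright large subunit proteins had log2 fold changes of similar size that did not pass. Rpl41 gave 0.39 (adjusted p in limma 0.146), Rpl10a 0.37 (0.215), Rpl6 0.29 (0.0631) and Rpl7a, whose EAE values all lay above the controls, 0.26 (0.124). Rpl41 was at 10.85, 11.36, 11.70, 10.83 and 11.30 in EAE and 10.89, 10.77 and 11.09 in control, so that EAE arrays 1 and 4 lay within the control range and the other EAE arrays above it. Rpl37a went the other way with -0.30 (0.226), below every control array on every EAE array. Rpl8, Rpl19 and Rpl13a gave 0.16, 0.17 and 0.02.

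Among the small subunit proteins, Rps4x, the X-linked S4, was higher. Its bright probe set read 11.70, 11.53, 11.60, 11.46 and 11.59 in EAE, against 11.24, 11.23 and 11.06 in control. The groups did not overlap, with a log2 fold change of 0.43 (SE 0.0755, adjusted p in limma 0.0201). Its other 4 probe sets were dim, with mean signals from 3.79 to 5.70, and gave -0.15 to 0.08, and when the 5 were averaged the gene did not pass (adjusted p in limma 0.548). Rpsa, a small subunit protein also known as a laminin receptor precursor, was at 9.36, 9.43, 9.33, 8.96 and 9.31 in EAE and 9.15, 8.93 and 9.01 in control. It passed with 0.35 (SE 0.0813, adjusted p in limma 0.0431), although EAE array 4 fell inside the control range, and without a batch term it did not (0.155).

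Several small subunit proteins had higher values on most or all EAE arrays and did not pass. Rps18 was at 10.08, 10.35, 10.75, 9.95 and 10.46 in EAE and 9.97, 9.87 and 9.97 in control, a log2 fold change of 0.45 (SE 0.138, adjusted p in limma 0.0859). Only EAE array 4 reached into the control range. Rps10 was at 10.29, 10.34, 10.40, 10.26 and 10.35 in EAE and 10.26, 10.12 and 9.75 in control, with 0.30 (0.193), and most of that came from pair 3, which gave 0.65 against 0.03 and 0.22 in pairs 1 and 2. Rps28 gave 0.36 and 0.31 on its 2 bright probe sets and Rps19 gave 0.25, each with an adjusted p above 0.1. Rps3a1, among the brightest probe sets of the array, gave 0.04 (SE 0.0637, 95% interval -0.12 to 0.20).

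Of 18 small subunit genes 12 were bright, and many ribosomal proteins could be followed only on dim probe sets. Rps14, Rps15, Rps20, Rpl35a, Rpl38 and Rpl39 were represented by probe sets from the dimmer 50% of the array, although their mRNAs are abundant in most cells, and their log2 fold changes lay between -0.17 and -0.02. Rps6 and Rpl3 had no probe set with a single symbol. Ribosomal proteins have many processed pseudogenes and near-identical copies (Rps4x and Rps4l, for example), and these probes can pick up more than 1 of them.

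**Figure D4:**
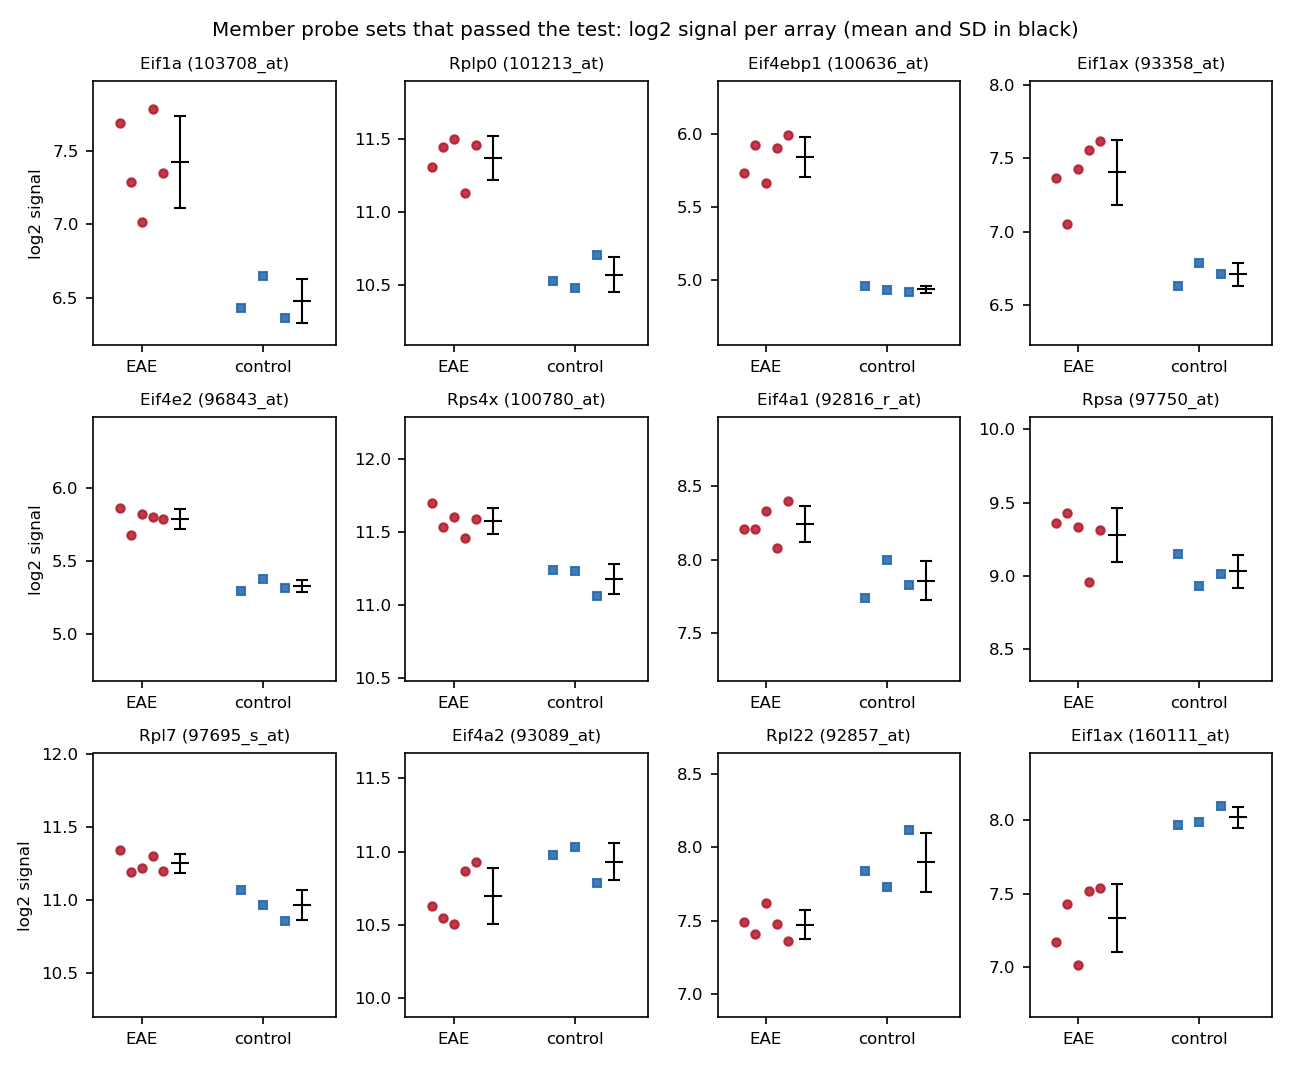
Log2 signal (y axis) of the 12 member probe sets that passed the test, on each EAE array (red circles) and control array (blue squares), with group means and SDs in black (n = 5 EAE and 3 control). All panels span the same log2 range. The first 9 panels are higher and the last 3 lower in EAE, and the groups overlap for Rpsa and Eif4a2.

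Initiation factors, measured by 47 probe sets, had 4 higher and 2 lower calls (8.51% and 4.26%, against 8.26% and 11.4% of all probe sets) and a median log2 fold change of -0.05, the same as over all probe sets. The eIF4A helicases, which unwind the start of the mRNA as part of eIF4F, went in opposite directions. Eif4a1 was at 8.21, 8.21, 8.33, 8.08 and 8.40 in EAE and 7.74, 8.00 and 7.83 in control, a log2 fold change of 0.39 (SE 0.0849, adjusted p in limma 0.0350) without overlap, from a probe set built under relaxed design rules. Eif4a2 was at 10.63, 10.55, 10.51, 10.87 and 10.93 in EAE and 10.98, 11.03 and 10.79 in control, a log2 fold change of -0.37 (SE 0.0731, adjusted p in limma 0.0269). EAE arrays 4 and 5, which have no control in their batch, fell into the control range of Eif4a2, and without a batch term it did not pass (0.199). The difference between the 2 log2 signals within an array was -2.79 to -2.19 in EAE and -3.24 to -2.96 in control, without overlap (exact permutation p 0.0179, over regroupings that ignore the batches).

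Of the cap-binding proteins, 1 had a probe set that passed. Eif4e, the cap-binding subunit of eIF4F, gave -0.14 and -0.18 on its 2 probe sets, and neither passed. Eif4e2, a related protein that binds the cap without recruiting the ribosome, was at 5.86, 5.68, 5.82, 5.80 and 5.79 in EAE and 5.30, 5.38 and 5.32 in control on one probe set. That was a log2 fold change of 0.45 (SE 0.0791, adjusted p in limma 0.0202), with every EAE array above the controls. Its other, brighter probe set gave 0.15 and did not pass (0.307). The scaffold genes Eif4g2 and Eif4g3 gave -0.04 and -0.27, and the helicase partners Eif4b and Eif4h gave -0.08 and -0.18, none of which passed, while Eif4g1 had no probe set with a single symbol.

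eIF1A, which helps the small subunit to scan for the start codon, is encoded by Eif1a and the X-linked Eif1ax in mice, and their 4 probe sets did not move together. For Eif1a, the dimmer probe set was at 7.69, 7.29, 7.02, 7.79 and 7.35 in EAE and 6.43, 6.65 and 6.36 in control. Its log2 fold change was 0.85 (SE 0.142, adjusted p in limma 0.0175), and the brighter one gave 0.33 (0.127). For Eif1ax, the dimmer probe set was at 7.37, 7.05, 7.43, 7.56 and 7.62 in EAE and 6.63, 6.79 and 6.71 in control, a log2 fold change of 0.57 (SE 0.115, adjusted p in limma 0.0283). The brighter one was at 7.17, 7.43, 7.01, 7.52 and 7.54 in EAE and 7.97, 7.99 and 8.10 in control, a log2 fold change of -0.82 (SE 0.116, adjusted p in limma 0.0116). Both were free of overlap between the groups, in opposite directions. Which transcripts or paralogs each probe set reads was not tested, so no direction is given for Eif1ax. It was the single gene, of 24 with more than 1 probe set, that was called in both directions.

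**Figure D5:**
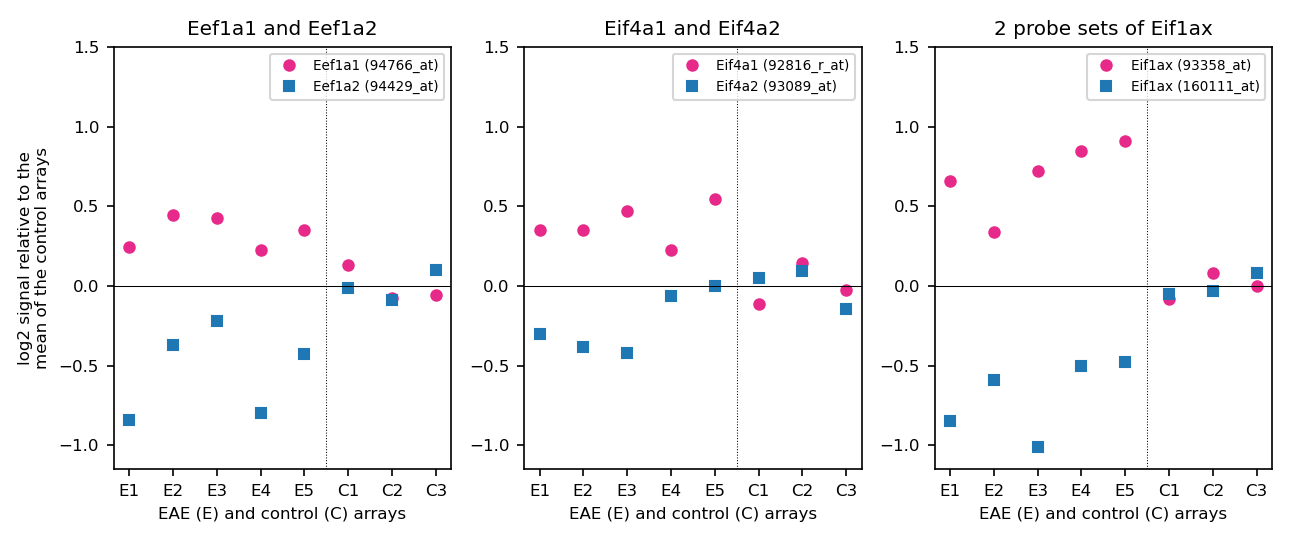
Log2 signal, with the control average set to 0 (y axis), on EAE arrays 1 to 5 (E1 to E5) and control arrays 1 to 3 (C1 to C3) for Eef1a1 and Eef1a2, Eif4a1 and Eif4a2, and the 2 probe sets of Eif1ax. In the first and last panel the 2 probe sets lie on opposite sides of the control mean on every EAE array, and in the middle panel EAE arrays 4 and 5 lie near the control mean for Eif4a2.

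eIF2B, the exchange factor that recharges eIF2 and whose human mutations cause a leukodystrophy with vanishing white matter, had negative log2 fold changes on all of its 5 probe sets, from -0.36 to -0.16, a sign shared by 7747 of all 12422 probe sets. With limma 0 of them passed, and 3 had an unadjusted p under 0.05, as had 2587 of all probe sets on the lower side. The largest was Eif2b5 at 6.13, 6.38, 6.30, 6.12 and 6.02 in EAE and 6.64, 6.49 and 6.77 in control, a log2 fold change of -0.36 (SE 0.102, adjusted p in limma 0.0715) without overlap. Its second probe set gave -0.29. Eif2b1 gave -0.34 (0.0585), Eif2b4 -0.21 (0.147) and Eif2b2 -0.16 (0.353). Subunits of eIF2 itself gave -0.03 for Eif2s2 and -0.03 for Eif2s3x, and Eif2s1 had no probe set with a single symbol.

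The eIF3 complex, which holds the small subunit and the mRNA factors together, was nearly level. Its 13 probe sets of 10 genes had log2 fold changes of -0.09 to 0.45 with a median of 0.03, 0 passed with limma, and 2 had an unadjusted p under 0.05 on the higher side, as had 1498 of all 12422 probe sets. Eif3e stood out at 8.08, 7.77, 8.01, 8.05 and 8.04 in EAE and 7.51, 7.65 and 7.36 in control, a log2 fold change of 0.45 (SE 0.121, adjusted p in limma 0.0632), above the controls on every EAE array. A dimmer probe set of Eif3e gave 0.02. Factors of the last steps gave -0.28 for Eif5, which triggers GTP hydrolysis by eIF2, -0.10 for Eif5b, which joins the subunits, and 0.16 for Eif6, which keeps the free large subunit apart, and Eif5a gave -0.10. None of these passed.

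Of the elongation factors, 0 of 7 probe sets passed with limma, and 1 higher and 1 lower had an unadjusted p under 0.05. These were the 2 forms of eEF1A. Eef1a1 was at 11.86, 12.06, 12.04, 11.84 and 11.97 in EAE and 11.75, 11.54 and 11.56 in control, a log2 fold change of 0.37 (SE 0.104, adjusted p in limma 0.0671). Eef1a2, the form of adult neurons and muscle, was at 9.88, 10.35, 10.50, 9.92 and 10.29 in EAE and 10.71, 10.63 and 10.82 in control, a log2 fold change of -0.48 (SE 0.129, adjusted p in limma 0.0629). Neither overlapped between the groups, and without a batch term both passed (0.0179 for Eef1a1 and 0.037 for Eef1a2). EAE arrays 1 and 4, with the largest 3' to 5' difference of Gapdh, were the lowest for both genes. The difference between the 2 log2 signals within an array was 1.98, 1.71, 1.54, 1.92 and 1.68 in EAE. In control it was 1.03, 0.91 and 0.74. As Eef1a1 lay above and Eef1a2 below every control on each EAE array, these differences could not overlap and are no separate result. Exact permutation tests, again ignoring the batches, gave p = 0.0179 for Eef1a1 and 0.0536 for Eef1a2.

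Eef2, which moves the ribosome by a codon, was at 9.50, 9.88, 10.27, 9.21 and 9.10 in EAE and 9.83, 9.56 and 10.10 in control. The EAE arrays spread on both sides of the controls, and the log2 fold change was 0.05 (SE 0.14, adjusted p in limma 0.842). Eef2k, the kinase that inhibits it, gave 0.03 at a dim mean signal of 4.57. The exchange subunits Eef1b2, Eef1d and Eef1g gave between -0.05 and 0.15.

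Among the regulators, Eif4ebp1 passed and 9 other probe sets did not. Eif4ebp1 encodes 4E-BP1, which holds back Eif4e until mTOR phosphorylates it. It was at 5.73, 5.92, 5.66, 5.90 and 5.99 in EAE and 4.96, 4.93 and 4.92 in control, with a signal in the dimmer 50% of the array. The groups were far apart, with a log2 fold change of 0.83 (SE 0.0807, 95% interval 0.63 to 1.04), a 1.78-fold difference, an adjusted p in limma of 0.00413 and pairs of 0.76, 0.99 and 0.74. Its paralog Eif4ebp2, the main form of the brain, gave -0.22 (adjusted p in limma 0.109) on its brightest probe set. The eIF2 kinases Eif2ak1, Eif2ak3 and Eif2ak4, which respond to haem shortage, unfolded protein and lack of amino acids, gave -0.24, -0.20 and -0.10 and did not pass. Eef1akmt1, a lysine methyltransferase of eEF1A, gave -0.49 (adjusted p in limma 0.0757), below every control array on every EAE array.

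Genes of the mitochondrial ribosome mostly had lower values in EAE. Of 65 measured genes of mitochondrial ribosomal proteins and translation factors (67 listed), 0 were higher and 11 lower by limma. That was 16.9% of the list lower, against 13.5% of all genes. Of the 65 genes, 48 (73.8%) were bright (mean log2 signal of at least 6.12). Over all brighter probe sets 18.6% were called lower. The 16.9% is of a list that also holds dim genes, with Mrpl34 and Mrpl46 (mean signals 6.05 and 5.95) among its lower calls. The sets are thus unlike, and no excess of lower calls over bright probe sets was shown. The median log2 fold change was -0.05 over all genes, with 5177 of 8251 negative, and -0.10 over all brighter probe sets. In the list the median was -0.24 and 62 were negative. None had an unadjusted p under 0.05 on the higher side, and 33 had one on the lower side, against 1067 and 1993 of all 8251 genes. Relative to the control mean, the median of the list was -0.26, -0.14, -0.28, -0.24 and -0.09 on EAE arrays 1 to 5 and -0.01, 0.07 and -0.07 on control arrays 1 to 3, so that every EAE array was below the controls. Mrps36 was at 7.32, 7.63, 7.20, 7.16 and 7.58 in EAE and 7.89, 8.00 and 7.78 in control, a log2 fold change of -0.50 (SE 0.0758, adjusted p in limma 0.0133). Mrpl34 gave -0.64 (0.0427) and Mrps26 gave -0.60 (0.0421). The median was -0.25 to -0.20 with 1 array left out, but without either array of batch 3 the number lower was 0, and without either array of batch 2 it was 3.

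Proteins that bind the cap, the poly(A) tail or TOP mRNAs had 2 higher and 1 lower of 15 genes (13.3% and 6.67%, against 9.19% and 13.5% of all genes). Pabpc1, the main cytosolic poly(A)-binding protein and itself the product of a TOP mRNA, was at 10.30, 10.08, 9.87, 10.58 and 10.13 in EAE and 9.20, 8.99 and 8.69 in control. The groups were far apart, with a log2 fold change of 1.12 (SE 0.0648, adjusted p in limma 8.90e-04). Ybx1, an mRNA packaging protein, gave 0.69 (0.00846), above the controls on every EAE array. Paip2, an inhibitor of the poly(A)-binding protein, gave -0.54 (0.00962), with overlap on EAE arrays 4 and 5. Without a batch term Paip2 did not pass (adjusted p in limma 0.21).

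Other groups of the pathway were mixed, beside 9.19% higher and 13.5% lower among all genes. Of 13 genes of the mTOR and S6 kinase pathway, 2 were higher and 3 lower (15.4% and 23.1%), among them Ddit4, an inhibitor of mTOR, with 0.60 (adjusted p in limma 0.00688), Mknk2, a kinase of Eif4e, with 0.58 (0.0200) and Pdpk1 with -0.77 (0.00947). Of 19 genes of the integrated stress response, 5 were higher and 1 lower (26.3% and 5.26%), with Cebpb at 3.47 (0.00164), a factor that myeloid cells also express, Atf3 at 1.67 (0.00134) and the amino acid transporter chain Slc3a2 at 0.53 (0.0234). Of 33 genes of ribosome biogenesis 1 was higher (3.03%), Myc with 0.67 (0.00639), and 3 were lower (9.09%), among them Rrs1 with -0.50 (0.0342) and Nolc1 with -0.44 (0.0211). Of 21 aminoacyl-tRNA synthetase genes 0 were higher by limma (1 at an unadjusted p under 0.05) and 3 were lower (14.3%), Yars with -0.48 (0.0136), Hars with -0.46 (0.0186) and Nars with -0.44 (0.0184). Of 4 release and recycling factors 0 passed by limma (1 lower at an unadjusted p under 0.05), and the largest change was in Gspt2 with -0.54 (0.0506). Fau, a small subunit protein whose symbol is outside the rule, gave 0.07 (0.535).

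Whole spinal cord is a mixture, and markers of several cell types in it moved with EAE. Of 16 macrophage and microglia markers 15 were higher (93.8%, against 9.19% of all genes), and their summed signal on the linear scale was 7071 to 11923 in EAE and 1347 to 1566 in control. T cell markers were higher for 6 of 11, with a sum of 706 to 837 in EAE and 567 to 602 in control, and neutrophil markers for 5 of 9, with a sum of 1383 to 2207 in EAE and 486 to 507 in control. By limma 0 of 7 B-lineage markers passed, with 1 lower at an unadjusted p under 0.05. Neuron markers fell for 5 of 11 (45.5%, against 13.5% of all genes), with a sum of 8362 to 8914 in EAE and 12685 to 13069 in control, 3 of 8 myelin markers fell, and 4 of 8 markers of dividing cells were higher. Of 8 skeletal muscle markers 0 passed by limma, 0 had an unadjusted p under 0.05, and their sum was 299 to 362 in EAE and 313 to 315 in control. Of 7 astrocyte and 7 endothelium markers, 1 was higher and 1 lower in each list (14.3% each way). The astrocyte sum was 8157 to 10800 in EAE and 8768 to 9832 in control. For endothelium it was 664 to 785 in EAE and 639 to 767 in control. For the genes described here, fewer cells of a type and less RNA per cell cannot be told apart, and the part of these cell types in their changes was not tested.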

How the data were processed

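RNA of whole spinal cord was measured on MG U74Av2 arrays. The authors deposited log2 values made in Partek Genomics Suite with RMA, and per the methods these are quantile normalized and adjusted for GC content; the versions are not given in the sources used here. The values were used as deposited. Array medians lay between 6.08 and 6.13, and the precision is limited by the number of arrays. Groups and batches were taken from the labels. The replicate number is the processing batch, so it pairs the arrays. Same-numbered arrays deviated from their group means with correlations of 0.302, -0.231 and 0.412 over all probe sets (batches 1, 2 and 3). Over the 113 members the correlations were 0.136, -0.535 and 0.345, so that batch 2 was negative in both.

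EAE and control were compared with limma 3.58.1 (R 4.3.3; lmFit, eBayes, treatment and batch as fixed terms, 2 residual and 3.05 prior degrees of freedom) over 12422 probe sets, two-sided, with Benjamini-Hochberg adjustment and a threshold of 0.05. The fold change between groups rests on the 3 pairs, since EAE arrays 4 and 5 have no control in their batch. Two-sided exact permutation tests used the 56 regroupings of the arrays, which ignore the batches and so the pairing. Probe sets were named from the array's annotation (10833 with 1 symbol, 396 with several, 1193 with none); all 113 members matched the RefSeq gene table through their Entrez identifier, which changed 0 symbols. Each gene was represented by its brightest probe set (mean of all 8 arrays). Start windows and promoters of 67 of the 82 genes came from RefSeq (GRCm38.p6); coordinates are those of the start sites, not of the probes. Protein sequences were not used here.

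The members, the lists and the tests were chosen with earlier results of these data known. Named in full are, per class, the 4 strongest rises and 4 strongest falls at most among probe sets that passed with the same sign in the 3 pairs and no overlap (up to 2 by size where none did), 20 genes listed by name, genes whose probe sets differ by over 0.5, and up to 3 called genes per further list (1 where none was called). Other members were picked once their values had been seen. Alternatives were other batch terms, no moderation, an intensity trend, array weights, centring, a further quantile normalization, brighter or plain probe sets only, other summaries of a gene, a threshold of 0.01, and each array left out. Figures were drawn with matplotlib 3.10.9.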

Additional observations from a re-analysis of the deposited data

Results flagged for a closer look

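In 7 of 133 groups of EAE values over the 5 arrays, 1 array stood apart from the other 4 by Dixon's criterion, which chance meets in about 1 in 20 groups. Rps3 was at 8.61 on EAE array 5, against 10.37 to 10.84 on the other EAE arrays and 10.50 to 10.66 on the control arrays. That array has no control in its batch, so the batch term absorbs the value in the fit. Rpl19 was at 10.90 on EAE array 3, against 9.89 to 10.15 on the others, and Eif2ak1 was at 7.28 on the same array, against 6.90 on the lowest EAE array and 7.14 to 7.42 on the control arrays. EAE array 4 was low for Rpsa with 8.96 (others 9.31 to 9.43), for Rps28 with 11.57 (11.74 to 11.81) and for Eif3l with 8.44 (8.67 to 8.74). Eif3e was at 7.77 on EAE array 2, against 8.01 to 8.08 on the others.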

How the results depend on the processing

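The 21 alternatives changed the number of calls more than the direction. The share of all probe sets called under each alternative is not given here, so the changes cannot be read as particular to the members. Without a replicate block, 10 probe sets were higher and 4 lower (7 and 4 genes), and beside the members named above Eif3e and Eif2b5 passed. With EAE arrays 1 and 4 left out and no block, 16 probe sets and 12 genes were higher, 7 mitochondrial genes were lower and their median was -0.15. An intensity trend left 3 genes higher. After median centring 6 probe sets and 6 genes were lower and 17 mitochondrial genes were lower. Without moderation all counts were 0. At a threshold of 0.01, 2 probe sets and 2 genes were higher, 0 probe sets and 0 genes were lower, and 0 mitochondrial genes were lower. With 1 array left out, 2 to 9 probe sets and 2 to 6 genes were higher, 0 to 3 of each were lower, 0 to 11 mitochondrial genes were lower, and the median of brighter ribosomal proteins was 0.12 to 0.30. EAE arrays 4 and 5 add nothing to the contrast under the batch term, so leaving them out says nothing. Of the 12 calls, 4 were kept without either array of batch 1, 7 without either array of batch 2 and 2 without either array of batch 3. Each array left out of batches 1 to 3 leaves 2 pairs, and the cause of the other changes was not tested. Of 968 values of 52 named probe sets, 730 kept direction and call, 176 lost the call, 36 gained it and 26 changed sign, all of the last without a call. Eef2 was -0.08 with EAE arrays 1 and 4 left out, -0.18 with a random block and -0.24 without a block, and -0.08 to 0.25 with 1 array left out. Eef2k was -0.09, -0.04 and -0.06 under the same settings, -0.00 after centring and -0.05 to 0.11 with 1 array left out. Rps3 was -0.55, -0.29 and -0.39, and -0.07 to 0.21. Eif4g2 was 0.03 with a random block, 0.04 without a block, 0.02 after quantile normalization and -0.16 to 0.04 with 1 array left out. Eif6 was -0.02 without a block, and a dim Rps4x probe set was -0.08 to 0.02 with 1 array left out.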
